A study of Mus musculus with 27 samples.

Results

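Remote myocardium, the heart muscle away from an infarct, was compared between pieces that carried much and pieces that carried little red-cell RNA. Of the 27 bulk RNA-seq libraries of the series, 14 came from remote myocardium, and 13 of these entered the comparison. They were chosen by the measured level of Hba-a1, an alpha-globin gene, in CPM, a gene's counts scaled to the same total count in every library. The 6 blood-rich pieces had 250 CPM or more of Hba-a1, from 2 CKD mice and 4 control mice. The 7 blood-poor pieces had less than 150 CPM, from 6 CKD mice and 1 control mouse. The piece of control mouse 9180 lay between the thresholds at 181 CPM and was left out of the comparison. Just inside the thresholds were control mouse 9170 at 310 CPM on the blood-rich side and CKD mouse 9172 at 147 CPM on the blood-poor side.

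All mice were male, carried the ApoE-/- genotype on the C57BL/6J strain, and had an infarct induced 7 days before the heart was taken. All received a western type diet throughout, which for 4 weeks was the only diet. In CKD (chronic kidney disease) mice, adenine was then added, which damages the kidneys, at 0.3% for 10 days and 0.15% for a further 11 days, of which 4 preceded the infarct. Control mice had no adenine. The tissue was rinsed in cold saline before freezing, and the labels give no measure of the blood that remained. Totals ran from 17699794 to 42566498 counts in the remote libraries. For mouse 9179 the title of the remote library reads CKD and its treatment label control, and CKD was used unless stated otherwise. Because 6 of the 7 blood-poor pieces were from CKD mice, diet entered the test as a covariate. As a check of the labelled tissue, 12 cardiomyocyte genes summed to 83658 to 100560 CPM in blood-rich and 79054 to 98738 CPM in blood-poor pieces, and the summed lung epithelial genes did not exceed 0.674 CPM in either class.

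Red cells of adult mice have no nucleus, and what RNA they retain is dominated by alpha-globin and beta-globin transcripts, inherited from the erythroblast stage. Alas2, the erythroid form of 5-aminolevulinate synthase, catalyses the first step of heme synthesis and is made in the same precursor cells. Heart muscle itself does not make haemoglobin in quantity, so globin transcripts in a piece of heart are commonly read as a measure of the blood in it. In bulk tissue, fewer cells of a type and less RNA per cell cannot be told apart.

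The promoters of the markers are shown as background on genes whose levels varied together between the pieces. No link between these sequences and the levels in the pieces was tested. Each runs from 250 bases before to 50 bases after the gene start, in RefSeq's coordinates for GRCm38.p6, which is not the build the submitters name for the counts. All 5 markers had an entry. Capitals mark the GATA motif, the hexamer bound by GATA1 in erythroid cells, searched on both strands as AGATAA or AGATAG and also as TGATAA or TGATAG. In Alas2 the motif is on the opposite strand and so reads TTATCT.

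Hba-a1, chr11:32283422-32283721, plus strand: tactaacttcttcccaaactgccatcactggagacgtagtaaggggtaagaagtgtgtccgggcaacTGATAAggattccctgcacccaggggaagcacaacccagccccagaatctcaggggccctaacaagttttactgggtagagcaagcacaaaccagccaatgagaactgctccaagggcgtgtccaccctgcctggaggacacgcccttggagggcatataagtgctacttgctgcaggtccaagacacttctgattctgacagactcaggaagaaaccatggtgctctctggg
Hbb-bs, chr7:103827879-103828178, minus strand: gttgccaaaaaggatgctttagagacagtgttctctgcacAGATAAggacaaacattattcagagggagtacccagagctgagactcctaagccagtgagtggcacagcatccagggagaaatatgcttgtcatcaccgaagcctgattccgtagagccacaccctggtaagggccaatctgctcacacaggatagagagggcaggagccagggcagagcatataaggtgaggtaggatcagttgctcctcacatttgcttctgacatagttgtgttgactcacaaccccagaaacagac
Hbb-bt, chr7:103813874-103814173, minus strand: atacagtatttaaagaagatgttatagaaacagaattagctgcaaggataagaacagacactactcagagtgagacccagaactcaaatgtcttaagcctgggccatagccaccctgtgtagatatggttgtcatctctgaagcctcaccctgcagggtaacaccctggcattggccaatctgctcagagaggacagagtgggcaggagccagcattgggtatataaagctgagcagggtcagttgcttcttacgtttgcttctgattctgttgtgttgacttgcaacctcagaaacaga
Alas2, chrX:150547167-150547466, plus strand: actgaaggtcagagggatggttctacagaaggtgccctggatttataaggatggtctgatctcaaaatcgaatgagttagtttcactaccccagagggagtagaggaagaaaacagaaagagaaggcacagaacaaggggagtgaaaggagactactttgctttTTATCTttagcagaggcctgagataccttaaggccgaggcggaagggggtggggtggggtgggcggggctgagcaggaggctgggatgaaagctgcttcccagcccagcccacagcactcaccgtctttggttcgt

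The Hba-a2 promoter, at chr11:32296242-32296541 on the plus strand, is the Hba-a1 sequence displaced by 3 bases, with 297 of 297 overlapping bases identical. The GATA hexamer was found once in each of Hba-a1, Hba-a2, Hbb-bs and Alas2 and not in the window of Hbb-bt. Among all 32851 promoters of that table, 29.8% held at least 1. The CACCC motif, which erythroid KLF1 binds, was searched on both strands as CACCC or GGGTG. It occurred 2 times in Hba-a1, 2 times in Hba-a2, 1 time in Hbb-bs, 3 times in Hbb-bt and 3 times in Alas2, and 57.5% of all promoters held it. No GATA hexamer overlapped a CACCC motif.

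The red-cell markers moved as 1 unit across the pieces. Since Hba-a1 made the classes and the other markers come from the same cell, their values are a description without a test. Hba-a1 was at 310, 527, 592 and 676 CPM in blood-rich control pieces and at 320 and 371 CPM in blood-rich CKD pieces. In blood-poor CKD pieces it was at 42.3, 53.0, 53.5, 57.2, 119 and 147 CPM, and the blood-poor control piece, from mouse 9171, had 99.1 CPM. The class means were 466 ± 154 CPM (SD, n = 6) in blood-rich and 81.7 ± 40.4 CPM (SD, n = 7) in blood-poor pieces. The 3 highest levels were all in control mice and the 4 lowest all in CKD mice.

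Hba-a2, the second adult alpha-globin gene, had a lowest, median and highest level of 295, 423 and 642 CPM in blood-rich pieces, against 40.3, 52.8 and 136 CPM in blood-poor pieces. Hbb-bs, an adult beta-globin gene that the table lists as Hbb-b1, had 274, 361 and 559 CPM in blood-rich pieces, against 32.4, 50.7 and 137 CPM in blood-poor pieces. Hbb-bt, the other adult beta-globin gene, had 147, 211 and 329 CPM in blood-rich pieces, against 18.8, 27.8 and 81.6 CPM in blood-poor pieces. In none of these did the classes overlap. Alas2 had 6.03, 8.20 and 15.1 CPM in blood-rich pieces, against 1.06, 1.36 and 2.50 CPM in blood-poor pieces, and a split by Alas2 with the same group sizes placed all 13 pieces as Hba-a1 did.

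**Figure D1:**
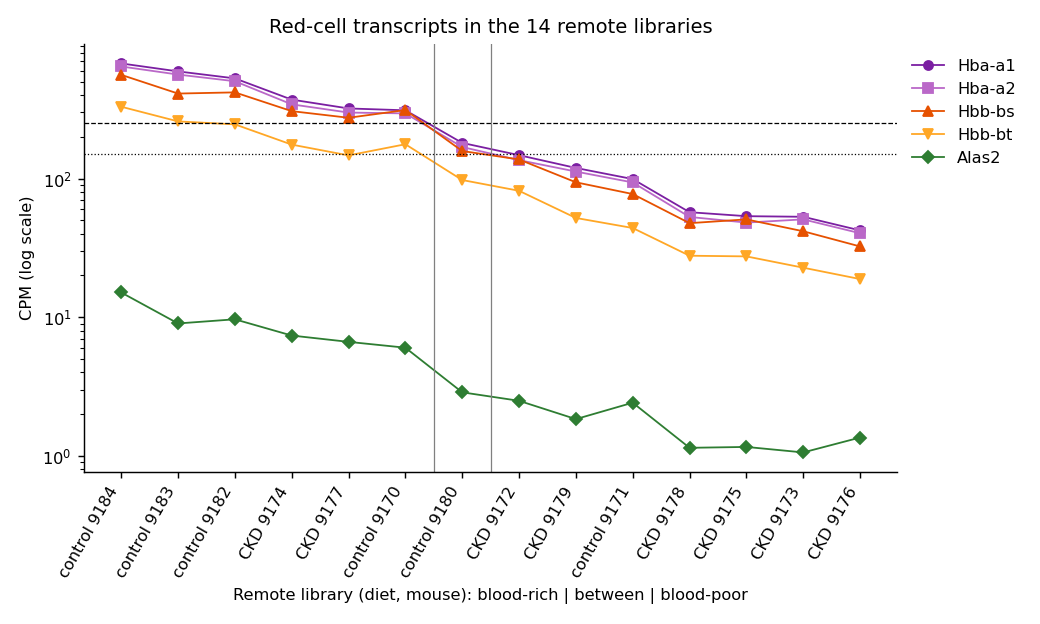
CPM of the 5 red-cell markers (y axis, log scale) in each of the 14 remote libraries (x axis, named by diet and mouse), with blood-rich pieces on the left, the piece between the thresholds next, and blood-poor pieces on the right. Each point is 1 library, the lines join the points of a gene, and the dashed and dotted lines mark 250 and 150 CPM; the 5 markers run in parallel.

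With diet in the model, blood-rich pieces had log2 fold changes over blood-poor pieces of 2.22 for Hba-a1, 2.22 for Hba-a2, 2.22 for Hbb-bs, 2.21 for Hbb-bt and 2.16 for Alas2. The ratios between the markers changed little by comparison. Over the 14 remote libraries the ratio of Hba-a2 to Hba-a1 counts ran from 0.899 to 0.958, with a coefficient of variation of 1.77%. The ratio of Hbb-bs to Hba-a1 varied more, from 0.692 to 1.004 with a coefficient of variation of 9.80%, and that of Hbb-bt from 0.429 to 0.569 with 9.58%. The ratio of Alas2 to Hba-a1 ran from 0.0152 to 0.0321, a coefficient of variation of 21.6%.

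How reads were shared between the alpha genes bears on these ratios. Of the stretches of 31 bases in the Hba-a2 transcript, 91.0% also occur in Hba-a1, and 71.3% of those of Hba-a1 occur in Hba-a2, so their separate counts are uncertain. The beta genes share 58.7% of the stretches of Hbb-bs and 59.4% of those of Hbb-bt, while Hba-a1 and Hbb-bs share none. Together the 4 globin genes took 0.104% to 0.221% of all counts in blood-rich pieces and 0.0134% to 0.0502% in blood-poor pieces. With globin counts left out of the totals and the scaling, edgeR called the same number of genes as below, 1.

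Outside the markers, no gene passed the edgeR test. Of 13803 genes tested over the 13 pieces with diet as a covariate, 1 was called at an adjusted p under 0.05 (0.00724%), namely the marker Alas2, which was higher in blood-rich pieces, and 0 were called lower (0%). The median log2 fold change of all genes was 0.00. An unadjusted p under 0.05 was reached by 824 genes (5.97%), of which 285 were higher (2.06%) and 539 lower (3.9%) in blood-rich pieces. The smallest adjusted p outside the markers was 0.134 (edgeR quasi-likelihood test, Benjamini-Hochberg), for Lad1. DESeq2 called 22 genes (0.159%) on the same counts, 12 higher and 10 lower, of which 17 were no markers, 7 of them higher. Among these were Lad1, Xdh, Pim3, A530013C23Rik, Timp4 and Nnt, higher in blood-rich pieces, and Ccl2, Prc1, 2210407C18Rik, Mtpn, Spag5, Nuf2, Kif2c, Pclaf, Fam83d and Mxd3, lower. With log2 Hba-a1 as a continuous covariate over all 14 pieces, edgeR called 6 genes (0.0432%), the 5 markers among them. Hba-a1 entered that model as its own covariate, so the calls of the markers are no result.

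**Figure D2:**
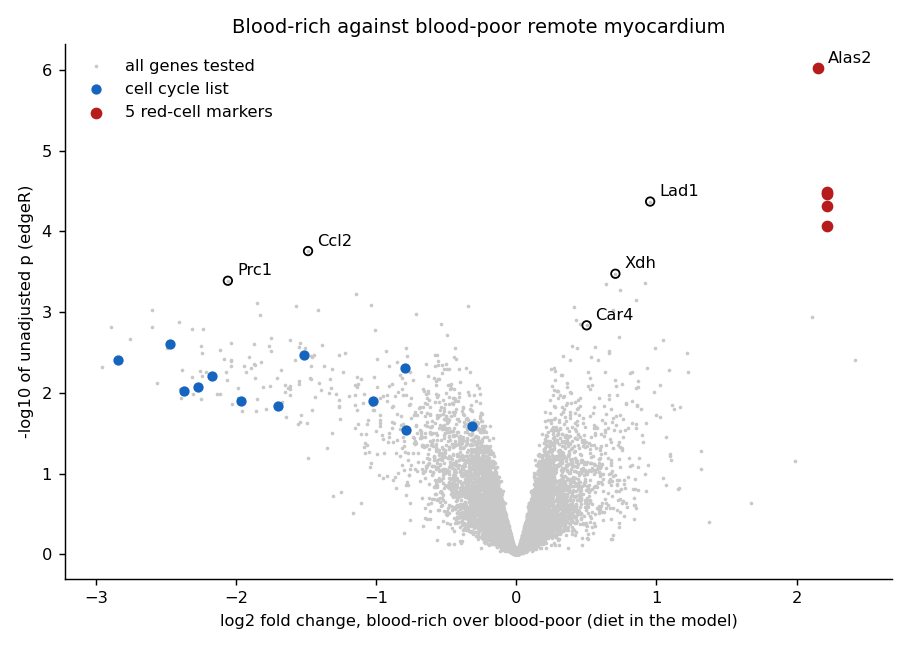
Each point is 1 of the 13803 genes tested; the x axis is the log2 fold change of blood-rich over blood-poor remote pieces with diet in the model, and the y axis is -log10 of the unadjusted edgeR p. The 5 markers (red) stand at about 2.2, the 12 cell cycle genes (blue) lie left of 0, and open circles mark named genes.

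Likeness to Hba-a1 was measured as Spearman's rho of log2 CPM over the 14 remote libraries, among the 12882 genes that averaged 1 CPM or more. Over all these genes rho had a 1st percentile of -0.60, a median of -0.03 and a 99th percentile of 0.61. Among the 8 highest were Hba-a2 (0.996), Hbb-bt (0.987), Hbb-bs (0.978), Alas2 (0.960), Pnrc1 (0.873), Tent5c (0.837) and Sugct (0.820). The libraries differ in depth and diet, the highest Hba-a1 levels were in control mice, and rho was not adjusted for diet, so these are descriptions. Tent5c, which encodes a poly(A) polymerase outside the canonical family, had 2.31, 2.93 and 4.41 CPM (lowest, median, highest) in blood-rich pieces, against 0.502, 1.12 and 2.11 CPM in blood-poor pieces, without overlap (log2 fold change 0.99 ± 0.28 SE, edgeR adjusted p = 0.598). Pnrc1, a nuclear receptor coactivator, differed by little, at 84.3 ± 1.54 CPM in blood-rich pieces (SD, n = 6) and 70.9 ± 7.33 CPM in blood-poor pieces (SD, n = 7). Sugct, a mitochondrial transferase of glutarate breakdown, overlapped between the classes (log2 fold change 0.63 ± 0.25 SE, edgeR adjusted p = 0.738).

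Other genes of the erythroid lineage were mostly too low to test. Of 20 listed, 19 were in the table and 8 had enough counts to be tested. The other 11 never exceeded 1.39 CPM in any blood-rich or blood-poor piece. Besides the markers, 0 of the 8 were called, 7 were above 0 and the median log2 fold change was 0.08 (0.05 to 0.23 with a piece left out). Bpgm, which makes the 2,3-bisphosphoglycerate that lowers the oxygen affinity of haemoglobin, had a log2 fold change of 0.28 ± 0.11 (SE, edgeR adjusted p = 0.719). Slc4a1, the band 3 anion exchanger of the red-cell membrane, had 0.133, 0.279 and 1.39 CPM in blood-rich pieces, against 0, 0.0480 and 0.112 CPM in blood-poor pieces (lowest, median, highest). These were too few counts for the test, and the classes stayed apart only narrowly, at 0.133 against 0.112 CPM.

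"Blood-rich" here names only the red-cell RNA by which the classes were made. Markers of the other blood cells overlapped between the classes and none passed the test. The same test did not call the globin genes either, at log2 fold changes of 2.21 to 2.22. Not passing it therefore does not show that the other blood cells were equal in the 2 classes. Among 7 platelet genes tested, 0 were called and 5 were below 0, with a median log2 fold change of -0.48, and the list's summed level was 34.8 to 39.9 CPM in blood-rich and 29.7 to 90.5 CPM in blood-poor pieces. Pf4, the platelet chemokine that cardiac macrophages also express, had 11.9, 14.9 and 19.5 CPM in blood-rich pieces, against 13.004, 23.3 and 31.01 CPM in blood-poor pieces. Its classes overlapped, and its log2 fold change of -0.48 ± 0.24 (SE) did not pass (edgeR adjusted p = 0.862). Itgb3, the integrin beta chain of platelets that endothelium also makes, had a log2 fold change of -0.62 ± 0.28 (SE, edgeR adjusted p = 0.807). The platelet median turned to 0.07 without the blood-poor piece of CKD mouse 9172 and to 0.04 without the blood-rich piece of CKD mouse 9177, and was -0.82 without mouse 9171. Over the same 7 genes it was -0.82 within CKD pieces and 0.77 within control pieces. Over the listed genes that had enough counts within each diet it was -1.39 in CKD pieces and 0.81 in control pieces.

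Leukocyte lists overlapped as well. Neutrophil genes had 0 of 7 called, 5 above 0 and a median of 0.39 (-0.10 without the diet covariate, -0.14 with mouse 9179 read as control, 0.19 without mouse 9174 and 0.22 without mouse 9171), with summed levels of 13.96 to 32.8 CPM in blood-rich and 13.7 to 33.1 CPM in blood-poor pieces. S100a9, a calcium-binding protein of neutrophils and monocytes, had 0.791, 2.09 and 7.07 CPM in blood-rich pieces, against 0.540, 2.62 and 9.12 CPM in blood-poor pieces. Its levels went with diet in the blood-rich pieces, which had 5.26 and 7.07 CPM in the 2 CKD mice and 0.791 to 2.35 CPM in control mice. The blood-poor class holds 1 control piece, too few to read diet within it. Csf3r, the receptor for the granulocyte growth factor G-CSF, had a log2 fold change of 0.39 ± 0.24 (SE, edgeR adjusted p = 0.952).

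Blood monocyte genes had 0 of 9 called, 5 above 0 and a median of 0.12, which turned to -0.08 without mouse 9177. Ear2, a ribonuclease gene of patrolling monocytes, had the smallest p of that list, at 0.0535, 0.199 and 0.479 CPM in blood-rich pieces, against 0.310, 0.597 and 1.13 CPM in blood-poor pieces (log2 fold change -1.47 ± 0.44 SE, edgeR adjusted p = 0.598). B cell genes had 0 of 5 called and a median of 0.39, which turned to -0.30 without the blood-rich piece of CKD mouse 9174 and was 0.73 without that of CKD mouse 9177. Cd79a, a signalling chain of the B cell receptor, had a log2 fold change of 0.66 ± 0.41 (SE, edgeR adjusted p = 0.956), and of -0.17 without mouse 9174. Of the T and NK cell list only Cd4 had enough counts, with a log2 fold change of -0.58 ± 0.38 (SE, edgeR adjusted p = 0.971), and of 0.22 without the blood-poor piece of control mouse 9171. Genes of heme and iron handling, among them the transferrin receptor Tfrc and its partner Hfe, had 0 of 10 called and a median of -0.05.

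Lad1, Timp4 and Car4 are genes outside the erythroid lineage whose levels were higher in every blood-rich than in any blood-poor piece. Lad1 encodes ladinin 1, a protein of epithelial basement membranes. It had 6.13 and 6.27 CPM in blood-rich CKD pieces and 4.17 to 4.92 CPM in blood-rich control pieces, against 2.02 to 3.22 CPM in blood-poor CKD pieces and 3.52 CPM in the blood-poor control piece. The classes did not overlap, and the log2 fold change was 0.95 ± 0.17 (SE, edgeR adjusted p = 0.134, DESeq2 adjusted p = 0.00108). Lad1 was called by limma-voom (adjusted p = 0.0253), by edgeR without the diet covariate (adjusted p = 0.0478), and by edgeR with all 14 pieces split at 200 CPM (adjusted p = 0.0451).

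Timp4, the inhibitor of matrix metalloproteinases that is most typical of heart, had 36.995, 46.7 and 54.7 CPM (lowest, median, highest) in blood-rich pieces, against 20.9, 30.6 and 36.8 CPM in blood-poor pieces, and its classes only just stayed apart (log2 fold change 0.74 ± 0.17 SE, edgeR adjusted p = 0.597). Car4, the carbonic anhydrase on the surface of capillary endothelium, had 24.4, 28.5 and 36.5 CPM in blood-rich pieces, against 15.9, 18.7 and 23.1 CPM in blood-poor pieces, again without overlap (log2 fold change 0.50 ± 0.13 SE, edgeR adjusted p = 0.598). Over all 13803 genes, 19 had classes that did not overlap (0.138%), 18 of them higher in blood-rich pieces (0.13%) and 1 lower (0.00724%). The gene that was lower was Primpol, a primase-polymerase, named after its values were seen.

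The remaining genes with the smallest p on the higher side overlapped between classes. Xdh, xanthine dehydrogenase, had 114, 124 and 209 CPM in blood-rich pieces, against 76.0, 96.2 and 116 CPM in blood-poor pieces (log2 fold change 0.71 ± 0.15 SE, edgeR adjusted p = 0.565). Nnt, the mitochondrial transhydrogenase gene that carries a deletion in C57BL/6J, had 2.004, 2.97 and 4.45 CPM in blood-rich pieces, against 1.36, 2.11 and 2.99 CPM in blood-poor pieces (0.85 ± 0.20 SE, edgeR adjusted p = 0.597). The log2 fold changes of Pim3, a serine/threonine kinase gene, and of A530013C23Rik were 0.64 ± 0.14 and 0.92 ± 0.21 (SE, edgeR adjusted p = 0.565 each).

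Ccl2 had the smallest p among genes with lower levels in blood-rich pieces. It encodes a chemokine that draws monocytes into tissue. It had 2.85 and 3.42 CPM in blood-rich CKD pieces and 2.96 to 5.31 CPM in blood-rich control pieces. The blood-poor control piece had 10.7 CPM and 5 of the 6 blood-poor CKD pieces had 8.53 to 13.1 CPM, while the piece of mouse 9179, whose label conflicts, had 3.11 CPM. The log2 fold change was -1.49 ± 0.30 (SE, edgeR adjusted p = 0.346, DESeq2 adjusted p = 0.00108). Without mouse 9179 edgeR called Ccl2 (log2 fold change -1.58, adjusted p = 0.0117). In the infarct tissue of the same mice its log2 fold change was 0.56.

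**Figure D3:**
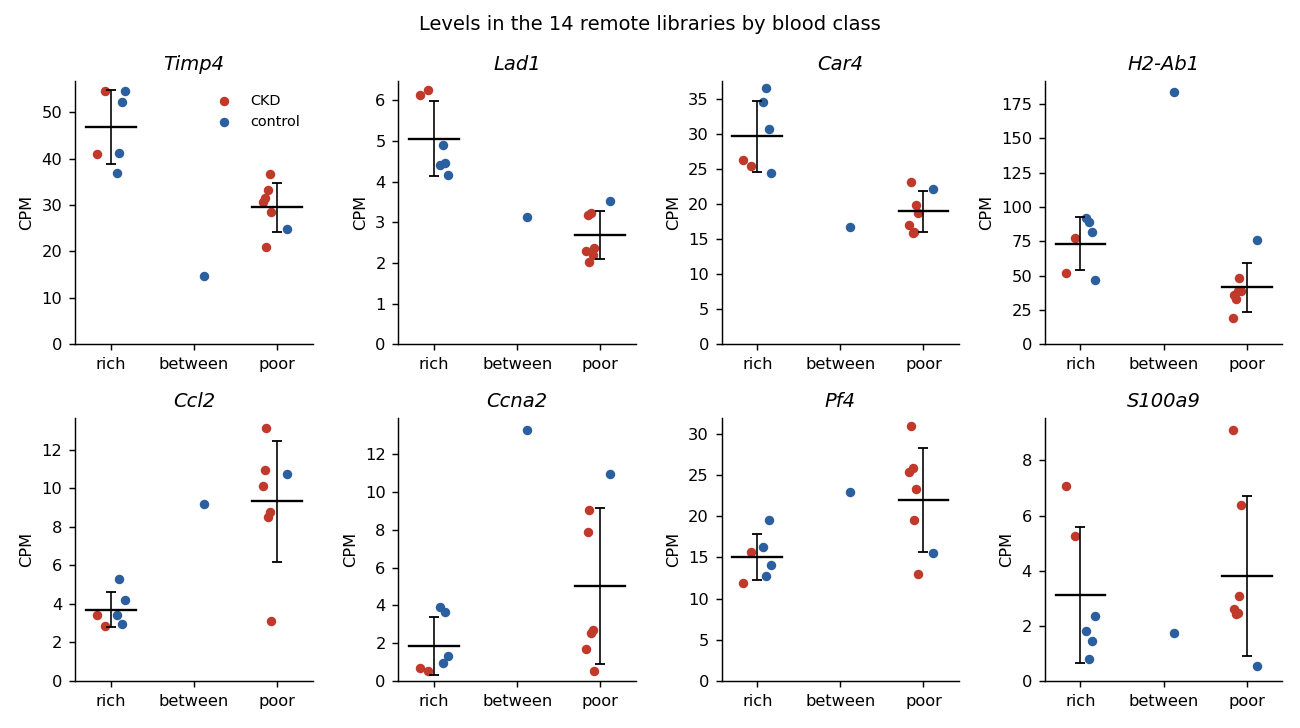
CPM (y axes, from 0) of 8 genes in the 14 remote libraries by class of the piece (x axes: blood-rich, between, blood-poor), red for CKD and blue for control mice; each point is 1 library, and bars give mean and SD of the 6 blood-rich and 7 blood-poor pieces. Timp4, Lad1 and Car4 do not overlap between blood-rich and blood-poor pieces, whereas H2-Ab1, Ccl2, Ccna2, Pf4 and S100a9 do.

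Genes of cell division had lower fitted levels in blood-rich pieces for every member of the list, and edgeR and DESeq2 each called 0 of these members. The genes that DESeq2 called lower are outside the list, which does not hold every gene of cell division. Being outside it does not set them apart from cell division, since Prc1, which acts in dividing cells, is among them. All 12 cell cycle genes tested were below 0, against 49.3% of all genes, and the median log2 fold change was -1.83. All 12 had an unadjusted p under 0.05, against 3.9% of all genes on the lower side, while 0 were called. The smallest adjusted p among them was 0.598 (edgeR). Ccna2, cyclin A2, had 0.501, 1.15 and 3.92 CPM in blood-rich pieces, against 0.526, 2.69 and 11.0 CPM in blood-poor pieces. Its classes overlapped widely, since 4 of the 7 blood-poor pieces had 2.69 CPM or less. Its log2 fold change was -2.47 ± 0.67 (SE). Rrm2, a subunit of ribonucleotide reductase, had 2.01, 2.39 and 4.01 CPM in blood-rich pieces, against 1.05, 4.34 and 10.6 CPM in blood-poor pieces (log2 fold change -1.52 ± 0.43 SE).

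The summed level of the cell cycle list was 56.0 to 102 CPM in blood-rich and 47.5 to 183 CPM in blood-poor pieces. The median was -2.01 within CKD pieces and -1.54 within control pieces, where 1 blood-poor piece, of mouse 9171, stood against 4. Leaving out each piece in turn gave medians from -2.04 to -1.65 and 7 to 12 members at an unadjusted p under 0.05, with 7 when mouse 9171 was left out. Without adjustment for diet, the mean log2 CPM of the list was 1.49 ± 0.74 in blood-rich and 2.48 ± 1.18 in blood-poor pieces (SD). The lowest such mean of all remote pieces, 0.268, was in the blood-poor piece of mouse 9179, whose label conflicts. Prc1 organises the spindle midzone in dividing cells and was named by its p rather than by the list. It had 0.800, 1.70 and 3.83 CPM in blood-rich pieces, against 1.16, 2.89 and 11.3 CPM in blood-poor pieces. Its log2 fold change was -2.06 ± 0.45 (SE, edgeR adjusted p = 0.565, DESeq2 adjusted p = 0.0036). Rad54l, a DNA repair gene, showed -1.14 ± 0.27, and 2210407C18Rik, which has no role given here, showed -1.86 ± 0.44 (SE, edgeR adjusted p = 0.597 each). Mtpn, myotrophin, differed by -0.35 ± 0.08 and Adamts8, a secreted metalloproteinase, by -1.58 ± 0.38 (SE, edgeR adjusted p = 0.597 each).

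Matrix genes also had lower fitted levels in blood-rich pieces. Of 14 structural matrix genes, 14 were below 0 in blood-rich pieces, against 49.3% of all genes, with a median of -0.57. An unadjusted p under 0.05 was reached by 4 of them, against 3.9% of all genes on the lower side, while 0 were called. Fbn1, the microfibril protein fibrillin 1, had 52.8, 71.7 and 130 CPM in blood-rich pieces, against 57.8, 116 and 210 CPM in blood-poor pieces (log2 fold change -0.83 ± 0.26 SE, edgeR adjusted p = 0.618). Col8a1, a short-chain collagen of vessels and injured heart, had 11.1, 14.9 and 46.8 CPM in blood-rich pieces, against 16.5, 26.1 and 50.03 CPM in blood-poor pieces (-0.96 ± 0.40 SE, edgeR adjusted p = 0.782). Both genes overlapped between the classes. The summed level of the list ran from 1447 to 6359 CPM in blood-rich and from 1647 to 4471 CPM in blood-poor pieces, so its highest piece was blood-rich. Without diet in the model the median was -0.12.

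With the structural matrix score, the mean log2 CPM of that list, as a further covariate, the cell cycle median was -1.05 with 5 of 12 members at an unadjusted p under 0.05. With the cardiomyocyte score instead it was -1.20 with 8 of 12. Whether matrix content or the makeup of the pieces accounts for the cell cycle difference was not tested. Activated fibroblast genes had 0 of 12 called, 10 below 0 and a median of -0.35 (-0.80 without mouse 9174 and -0.20 without mouse 9177), and Meox1, a transcription factor of activated fibroblasts, had a log2 fold change of -1.11 ± 0.35 (SE, edgeR adjusted p = 0.618). Resting fibroblast genes had 0 of 12 called and a median of -0.10. The piece of mouse 9180, which lay between the thresholds, had 529 CPM of Fbn1, 423 CPM of Col8a1 and 13.3 CPM of Ccna2, above every piece of both classes.

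The resident macrophage and MHC class II lists had medians of opposite sign. Resident macrophage genes had 11 of 12 members below 0 and a median of -0.30 (-0.11 without mouse 9174), with 0 called. Cbr2, a carbonyl reductase gene typical of resident cardiac macrophages, had 16.5, 23.04 and 29.7 CPM in blood-rich pieces, against 21.9, 33.5 and 47.2 CPM in blood-poor pieces (log2 fold change -0.57 ± 0.21 SE, edgeR adjusted p = 0.698). C1qc, a subunit of complement C1q made by macrophages, showed -0.42 ± 0.20 (SE, edgeR adjusted p = 0.862). MHC class II genes, which present antigen to helper T cells, had 7 of 7 members above 0 and a median of 0.48 (0.22 without mouse 9177). An unadjusted p under 0.05 was reached by 4 members, against 2.06% of all genes on the higher side, and 0 were called.

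H2-Ab1, the beta chain of the class II molecule I-A, had 51.9 and 77.5 CPM in blood-rich CKD pieces and 46.9 to 92.0 CPM in blood-rich control pieces. The blood-poor CKD pieces had 19.01 to 48.6 CPM and the blood-poor control piece 76.0 CPM. The classes overlapped through that control piece and, narrowly, through the blood-poor piece of CKD mouse 9178 at 48.6 CPM and the blood-rich piece of control mouse 9184 at 46.9 CPM. The log2 fold change was 0.56 ± 0.23 (SE, edgeR adjusted p = 0.752). Cd74, the invariant chain that escorts class II molecules, had a log2 fold change of 0.48 ± 0.22 (SE, edgeR adjusted p = 0.808). Within CKD pieces the median of the MHC class II list was 0.71 and within control pieces -0.01, and the difference between these list medians was not tested.

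Vessel and muscle lists were close to even. Capillary endothelial genes had 0 of 8 called and a median of 0.17 (0.08 without mouse 9171 and 0.06 without mouse 9177). Rgcc, a regulator of the cell cycle that is high in heart capillaries, was at 0.42 ± 0.18 (SE, edgeR adjusted p = 0.787). Pan-endothelial genes had a median of -0.03, with Pecam1, the junction protein CD31, at -0.25 ± 0.11 (SE, edgeR adjusted p = 0.815). Large-vessel and endocardial genes had a median of -0.08, with the arterial semaphorin gene Sema3g at 0.36 ± 0.13 (SE, edgeR adjusted p = 0.657). Lymphatic endothelial, smooth muscle and pericyte lists had medians of 0.06, 0.04 and 0.05, and 0 members of any of these lists were called. With a piece left out, the medians of the pan-endothelial (-0.11 to 0.04), large-vessel and endocardial (-0.13 to 0.04), lymphatic (-0.24 to 0.13) and smooth muscle (-0.20 to 0.19) lists fell on either side of 0.

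Cardiomyocyte genes had 0 of 12 called and a median of 0.09. Tnnt2, cardiac troponin T, was at 9550, 11412 and 15313 CPM in blood-rich pieces, against 8527, 13119 and 14201 CPM in blood-poor pieces, and Ttn, the giant sarcomere protein titin, had a log2 fold change of 0.26 ± 0.18 (SE, edgeR adjusted p = 0.985). Atrial muscle genes had a median of 0.47 with 0 of 7 called and summed levels of 107 to 1174 CPM in blood-rich and 106 to 756 CPM in blood-poor pieces. That median turned to -1.40 without the blood-rich piece of CKD mouse 9174, was 1.31 without the blood-poor piece of control mouse 9171 and was 0.15 to 0.77 without any other piece. It was 1.32 within CKD pieces and -1.22 within control pieces. Mesothelial genes, of the layer that covers the heart, had a median of 0.40 with 0 of 8 called and summed levels of 16.2 to 99.3 CPM in blood-rich and 14.7 to 68.0 CPM in blood-poor pieces. Their median turned to -0.22 without the blood-rich piece of CKD mouse 9177 and was 0.73 without that of CKD mouse 9174. Apoe, the gene that carries the knockout allele in all mice, still gave counts, with 11.6 to 18.4 CPM in blood-rich and 11.5 to 21.4 CPM in blood-poor pieces (log2 fold change -0.02 ± 0.19 SE, edgeR adjusted p = 0.9995).

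**Figure D4:**
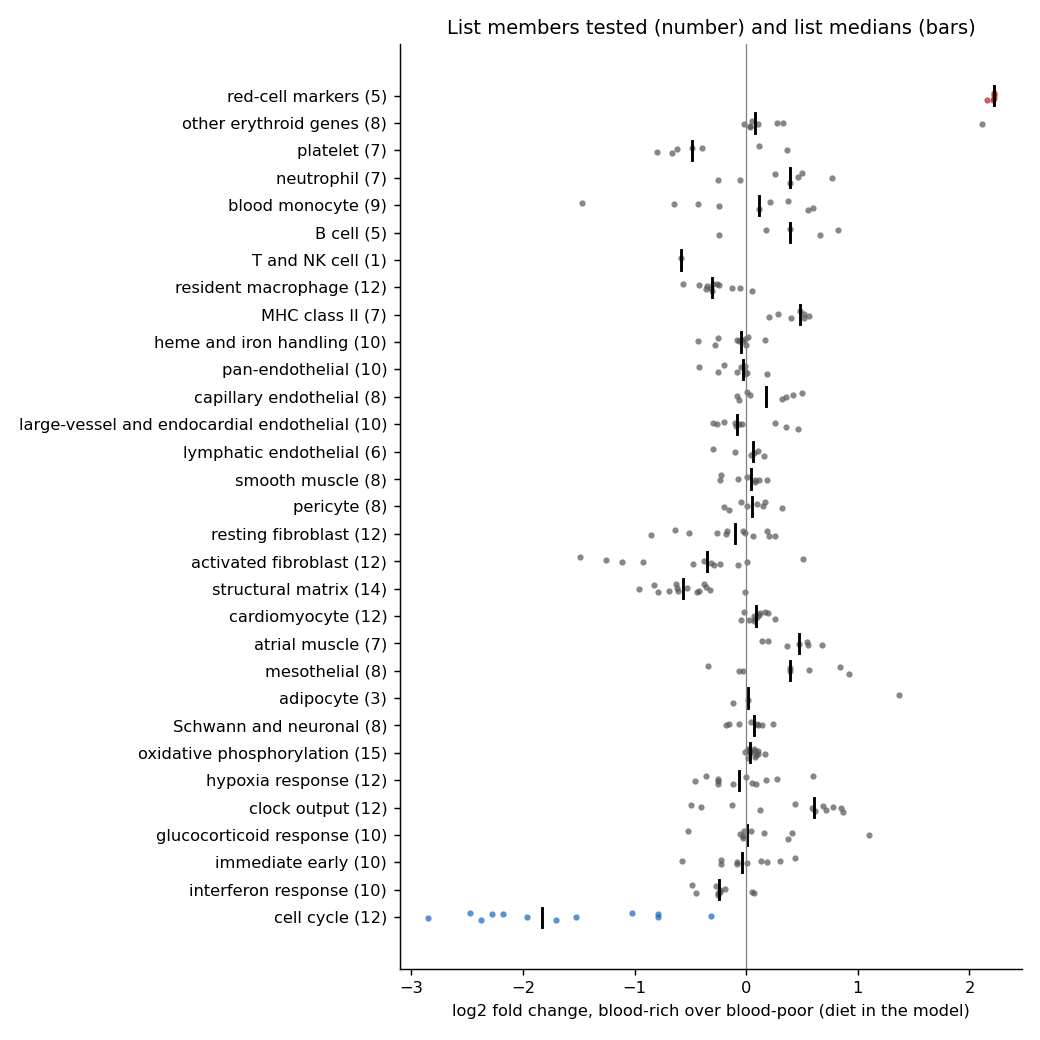
Log2 fold change of blood-rich over blood-poor remote pieces (x axis, diet in the model) for each tested member (points) of each gene list (rows, with the number of members tested), with the list median as a black bar. The red-cell markers have a median of 2.22 and the cell cycle genes of -1.83, and the medians of the other lists lie between -0.58 and 0.60.

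Whether the blood class goes with other differences in CKD than in control mice was asked with an interaction term. It called 187 of 13803 genes (1.35%), 35 with a larger and 152 with a smaller blood-rich over blood-poor fold change in CKD than in control mice, and 3294 had an unadjusted p under 0.05 (23.9%). The control side of this contrast rests on 1 blood-poor piece, that of mouse 9171, the most deeply counted remote library. Leaving out any other piece gave 0 to 774 calls, and without mouse 9171 the term could not be fitted.

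Trdn, Matr3 and Focad, among the genes with the smallest p in that contrast and named after their values were seen, followed the piece of mouse 9171. Ogn, which had a smaller p than Trdn, and the other called genes are not described here. Trdn, triadin of the calcium release complex, had 131 and 161 CPM in blood-rich and 171 to 260 CPM in blood-poor pieces of CKD mice, and 187 to 246 CPM in blood-rich pieces of control mice, against 66.2 CPM in mouse 9171. Matr3, a nuclear matrix protein, had 9.70 CPM in mouse 9171 and 15.8 to 26.01 CPM in the other 12 pieces. Focad, a focal adhesion protein, had 16.1 CPM in mouse 9171 and 6.63 to 11.3 CPM in the other 12 pieces. The differences of the log2 fold changes, CKD minus control, were -2.39 ± 0.38 for Trdn, -1.73 ± 0.27 for Matr3 and 1.28 ± 0.20 for Focad (SE, edgeR adjusted p = 0.0365 each). What belongs to diet and what to that single library cannot be told apart.

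Infarct tissue of the same hearts, which the classes did not use, was then compared by the class of the remote piece. Without adjustment for diet, Hba-a1 was higher in the infarct tissue of mice with a blood-rich remote piece. Its lowest, median and highest levels were 102, 213 and 465 CPM in the 6 infarct libraries of mice with blood-rich remote pieces, against 21.7, 37.6 and 188 CPM in the 6 of mice with blood-poor ones. The groups overlapped through 2 blood-poor mice, 9172 at 188 CPM and 9179 at 114 CPM. The difference in mean log2(CPM + 1) was 1.93 (exact two-sided permutation test, p = 0.0195, the smallest possible being 0.00216). Within CKD mice it was 1.58 (n = 2 and 5, exact permutation p = 0.286, the smallest possible being 0.0476) and within control mice 2.58 (n = 4 and 1, exact permutation p = 0.200, the smallest possible there). Diet is unbalanced here, since 4 of the 6 mice with blood-rich and 1 of the 6 with blood-poor remote pieces were controls. With diet as a covariate the log2 fold change of Hba-a1 was 1.52 ± 0.86 (SE) and did not pass (edgeR unadjusted p = 0.105, adjusted p = 0.9999).

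Across the 13 mice with both tissues, log2 Hba-a1 correlated between infarct and remote libraries with Pearson's r = 0.857 (permutation p = 0.00034, adjusted p = 0.00204) and Spearman's rho = 0.764 (permutation p = 0.0033, adjusted p = 0.0099). Without mice 9176 and 9184, the farthest from the median remote level, r was 0.874. Within CKD mice r was 0.830 (n = 7, exact permutation p = 0.0302, adjusted p = 0.0452) and rho 0.643 (exact permutation p = 0.139). Within control mice r was 0.884 (n = 6, exact permutation p = 0.0250, adjusted p = 0.0452) and rho 0.771 (exact permutation p = 0.103). These are 6 tests adjusted together. Infarct tissue had less Hba-a1 than the remote piece in 12 of 13 hearts, with ratios from 0.270 to 1.28 and mouse 9172 as the exception.

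**Figure D5:**
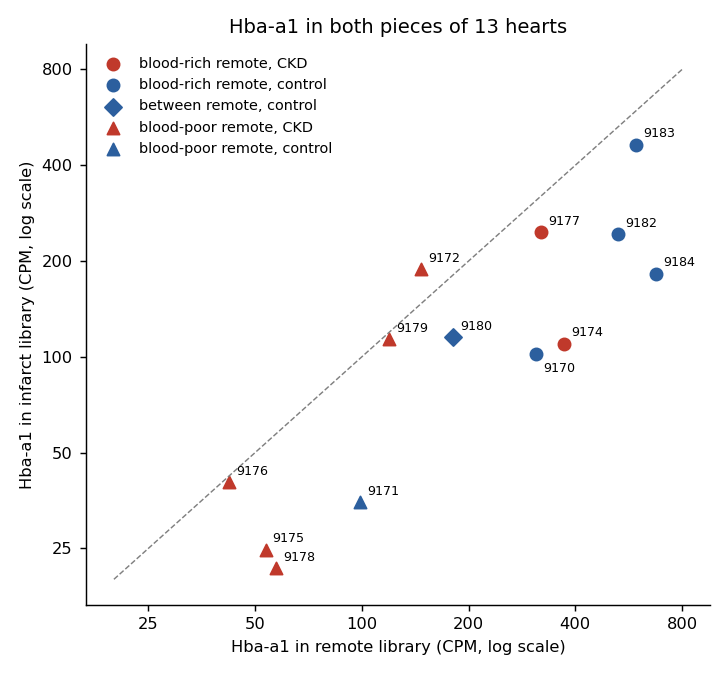
Hba-a1 in the infarct library (y axis, CPM, log scale) against the remote library (x axis, CPM, log scale) of the same heart for 13 mice, marked by class of the remote piece and by diet; the dashed line marks equal levels. Points rise together, and all but mouse 9172 lie below the line.

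Across all genes, the infarct libraries did not separate by the class of the remote piece at the threshold. Of 14226 genes tested with diet as a covariate, edgeR called 0 (0%), with 99 at an unadjusted p under 0.05 (0.696%). Alas2 had a log2 fold change of 1.23 in that fit. DESeq2 called 0 with 166, and limma-voom called 0 with 336 at an unadjusted p under 0.05. The cell cycle list had a median log2 fold change of -0.13 there, the structural matrix list -0.06 and the MHC class II list 0.05, against -1.83, -0.57 and 0.48 in the remote pieces. The differences between the tissues were not tested.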

How the data were processed

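RNA of remote and infarct myocardium was sequenced from 14 mice. The values deposited by the authors are raw counts, whole numbers for 27304 genes in 27 libraries, of which 21658 genes have a count. The tool and build, per the submitters' processing notes, were kallisto 0.48.0 and GRCm39, and how transcript estimates became gene counts is not given in the sources used here. All columns were matched to samples by title. Symbols of 27 genes that had become dates were restored from their Ensembl IDs, and the 479 entries with a shared symbol were distinguished by ID.

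CPM is a gene's count scaled to the same total count in every library. The main test was that of edgeR 4.0.16 (quasi-likelihood F test, R 4.3.3), with filterByExpr on the blood class, TMM scaling, robust fitting, diet as a covariate, Benjamini-Hochberg adjustment over all genes tested and a threshold of 0.05. Standard errors of fold changes were computed from the F statistic. The members, the gene lists and the tests were chosen with earlier results of these data known. Of 332 genes in 32 lists, 328 were found, 2 under another symbol. The 6 genes of smallest p in each direction among those averaging 1 CPM or more, the 2 list members with the smallest p, the 8 genes most like Hba-a1, the markers and Apoe were named by rule, and the text prints a selection; a few items are not reported here. The 3 interaction genes, Slc4a1, Primpol and the genes listed only by their DESeq2 call were named after their values were seen. P-values measure the spread between these mice.

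Alternatives were other scalings and filters, DESeq2 1.42.0, limma-voom (limma 3.58.1), no diet covariate, mouse 9179 read as control, other ways to set the classes, each diet alone, tissue scores as covariates, globin counts left out, and each library left out. The atrial and matrix scores, the correlation of Hba-a1 between tissues, and the infarct comparison without mice 9172 and 9179 were added after seeing the data. Among 36 library pairs of a class chi-square per degree of freedom was at least 9.52, so none was a technical duplicate. Infarct totals ran from 14255456 to 29506790 counts. The gene test was tested on simulated data.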

Additional observations from a re-analysis of the deposited data

Results flagged for a closer look

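Within the classes, 108 groups of 6 or 7 pieces were searched for a library far from the others, and 10 were found. Chance gives such a library in about 1 of 20 groups if the groups are independent. These are not, since they share the same pieces and many of the genes were picked by their p. Focad was named for an interaction that rests on mouse 9171. The number found therefore cannot be set against that rate. In blood-rich pieces, mouse 9183 stood high for Sugct at 3.37 CPM, for 2210407C18Rik at 3.96 CPM and for Col8a1 at 46.8 CPM. Mouse 9177 stood high for Xdh at 209 CPM. In blood-poor pieces, mouse 9171, the only control mouse of that class, stood low for Pim3 at 53.7 CPM and high for Adamts8 at 8.39 CPM, for Cd4 at 4.06 CPM and for Focad at 16.1 CPM. Mouse 9172 stood high for Itgb3 at 10.6 CPM. Mouse 9179, whose treatment label conflicts with its title, stood low for Ldha at 770 CPM, next to 919 to 979 CPM in the other blood-poor pieces. The effect of blood class differed between CKD and control mice by an interaction test for Focad (1.28 on the log2 scale), Matr3 (-1.73) and Trdn (-2.39), with mouse 9171 as the only blood-poor control piece.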

How the results depend on the processing

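The count of called genes outside the red-cell markers stayed at 0 to 1 in every edgeR and limma-voom fit run and was 17 with DESeq2. The count of all called genes, 1 with edgeR, was 22 with DESeq2, 2 with limma-voom, 6 without the diet covariate, 5 with mouse 9179 read as control, 5 with a split at 200 CPM, 6 with log2 Hba-a1 as a continuous covariate and 6 with that covariate and without mouse 9180. It was 0 in control pieces alone (2551 at an unadjusted p under 0.05), 0 in CKD pieces alone (1438) and 0 with the cardiomyocyte score added (549). The fits without 1 piece gave 0 to 5 calls, with 0 without mice 9171, 9174 or 9177, 5 without 9172, and 2 without 9179 (Alas2 and Ccl2) or 9183 (Alas2 and Tnc). The interaction gave 324 calls with upper-quartile scaling against 187 and 0 to 774 when a piece was left out. The infarct comparison gave 0 calls in every fit run, also without mice 9172 and 9179. Without these mice, however, 888 of 14558 genes had an unadjusted p under 0.05 (edgeR), against 99 of 14226 in the main fit. The infarct difference in Hba-a1 was 1.69 to 2.31 when a library was left out, 1.72 with TMM scaling (exact permutation p = 0.0325), 2.69 without mice 9172 and 9179 (exact permutation p = 0.00476), 2.58 within control mice and 1.58 within CKD mice, the within-diet values not passing.

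Of 1629 comparisons of a named gene's fold change under an alternative with its main value, 1544 kept sign and side of the threshold, 41 came to pass, 27 no longer passed and 17 changed sign. The sign changes were Pf4 in control pieces alone (0.11), S100a9 without the diet covariate (-0.30) and with 9179 as control (-0.14), Csf3r without the diet covariate (-0.034) and with the split at 200 CPM (-0.13), Cd4 in CKD pieces alone (0.22), Tnnt2 without the diet covariate (-0.085), and Apoe with the continuous covariate (0.052), also without mouse 9180 (0.065), and in control pieces alone (0.30). With a piece left out, the ranges that crossed 0 were -0.18 to 0.15 for Apoe, -0.17 to 1.10 for Cd79a and -0.87 to 0.22 for Cd4. The causes were not tested. With mouse 9180 counted as blood-poor in the split at 200 CPM, the structural matrix median was -1.23. The red-cell markers kept a median between 2.07 and 2.43 when a piece was left out.

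No paired analysis was possible because the blood-rich and blood-poor pieces come from different mice, so the groups compared share no mouse number. The classes and diet are unbalanced, low counts limit Slc4a1 and the leukocyte genes, and the dissection of the pieces is not described.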

Other observations

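Genes of cell state, as opposed to cell type, gave 0 calls between blood-rich and blood-poor remote pieces in edgeR. Clock output genes, the transcription factors and repressors of the daily rhythm, had 9 of 12 members above 0 in blood-rich remote pieces, a median log2 fold change of 0.60 and 0 called. The median was 0.19 without the blood-poor piece of control mouse 9171, 0.37 without the blood-rich piece of CKD mouse 9177 and 0.94 without that of CKD mouse 9174. It was 0.18 within CKD pieces and 1.08 within control pieces. Tef, a transcription factor driven by the clock, had 54.5, 164 and 271 CPM (lowest, median, highest) in blood-rich pieces, against 70.4, 120 and 149 CPM in blood-poor pieces, so that blood-rich pieces held both the lowest and the highest level (log2 fold change 0.69 ± 0.32 SE, edgeR adjusted p = 0.822). The time of day at which hearts were taken is not given in the labels.

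Hypoxia response genes had 0 of 12 called and a median of -0.06. Ndrg1, a stress gene induced by low oxygen, had 48.5, 56.2 and 64.0 CPM in blood-rich pieces, against 40.5, 46.8 and 49.9 CPM in blood-poor pieces (log2 fold change 0.27 ± 0.08 SE, edgeR adjusted p = 0.598). Ldha, the muscle form of lactate dehydrogenase, went the other way, with 718, 772 and 808 CPM in blood-rich pieces, against 770, 955 and 979 CPM in blood-poor pieces (-0.26 ± 0.09 SE, edgeR adjusted p = 0.690). Oxidative phosphorylation genes had a median of 0.04, glucocorticoid response genes 0.01, immediate early genes -0.04 and interferon response genes -0.24. Schwann and neuronal genes had a median of 0.07 and the 3 testable adipocyte genes 0.01, and 0 members of any of these lists were called. With a piece left out, the interferon median was -0.44 to -0.10, and those of the hypoxia (-0.10 to 0.02), oxidative phosphorylation (-0.01 to 0.09), immediate early (-0.43 to 0.21), Schwann and neuronal (-0.06 to 0.14) and adipocyte lists (-1.91 to 0.62) fell on either side of 0.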
